A study of Homo sapiens with 10 samples.

Results

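The cancer-testis antigens studied here are genes of testis and other germ-line tissue that many tumours switch on again. They were taken as the rows of the deposited expression table whose symbol is PRAME or DDX43, or begins with the name of the MAGEA, MAGEB, MAGEC, GAGE, PAGE, XAGE, SSX, CTAG, CSAG, CT45, SPANX, VCX or NXF2 family. This symbol rule found 40 of 20591 rows, of which 39 belong to 12 families. The remaining row, SSX2IP, matched by its symbol alone: it encodes a centrosomal protein that binds SSX2 and is no cancer-testis family member, so it is described apart and enters no family sum. DDX43, SPANX and NXF2, and family copies without a row of their own, were not analysed here. Of the 40 genes, 38 lie on the X chromosome, with PRAME on chromosome 22 and SSX2IP on chromosome 1.

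The data were bulk RNA sequencing of 10 libraries. Each of 4 lines was sequenced once on its own: HL60, from acute leukaemia with promyelocytic features; K562, from the blast crisis of a chronic myeloid leukaemia and erythroid in character; SUDHL4, from a B cell lymphoma; and THP1, from acute monocytic leukaemia. The other 6 were in vitro mixtures of the 4 lines in ratios that the labels do not give. All groups were wild type, untreated and harvested at day 0, from RPMI medium with 10% serum. The labels name a stranded total RNA kit and a stranded mRNA kit without saying which library had which, so kit and line cannot be told apart. With 1 library per group there is no replicate error and no test between groups: intervals below are exact 95% intervals of the read counts and cover counting error only.

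Cancer-testis genes are normally silent outside the germ line because the CG pairs at their promoters are methylated, and loss of that methylation is the best known way in which tumour cells come to express them. Most sit in X-linked clusters of recent gene copies, so many copies are nearly identical in sequence. Their proteins are studied as targets of T cells and, in leukaemia, PRAME transcripts are used to follow residual disease.

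Depth ran from 24985570 reads in mixture 5 to 36607612 in mixture 1. Levels are given as normalised CPM, the authors' rescaled CPM (read counts scaled to library size); a gene with 1 read stood at between 0.0409 and 0.0594, depending on the library, and a gene at 0 reads could have had up to 3 reads, a level of at most 0.139. Marker genes matched the labels of 3 lines: all 5 erythroid markers were enriched in K562, all 4 B cell markers in SUDHL4 and all 4 monocyte markers in THP1. For HL60 they were divided: of 4 promyelocyte markers, MPO and CEBPE were enriched in HL60, and AZU1 and ELANE in THP1. Of 4 stromal markers, DCN stood at 69.7 in SUDHL4, with 0 reads in HL60 and THP1 and 0.0706 in K562, and the other 3 were under 5 in every line; germ cell markers were not analysed here, and the part of other cell types in the levels below was not tested.

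Of the 4 pure lines, K562 had by far the most cancer-testis RNA: the 39 family members summed to 2440.1 normalised CPM there, 77.2 in HL60, 70.5 in THP1 and 2.85 in SUDHL4. Enriched means here that a gene reached 5 normalised CPM in 1 pure line and exceeded every other pure line by 2 or more on the log2(level + 1) scale. By this rule 18 of the 40 genes were enriched in K562, against 2.62% of all 20591 genes. None was enriched in HL60, SUDHL4 or THP1, where 0.554%, 2.03% and 2.86% of all genes were. At 5 normalised CPM or more there were 19 of the 40 genes in K562, 3 in HL60, 1 in SUDHL4 and 3 in THP1, against 45.5%, 43.8%, 43.4% and 47.8% of all genes. K562 held the highest level of 37 of the 40, compared with 30.4% of all genes with a read in a pure line. The median log2 difference of the 40 genes between K562 and the mean of the other 3 lines was 1.91, and that of all genes was -0.0014. In bulk RNA, more expressing cells and more RNA per cell cannot be told apart.

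**Figure D1:**
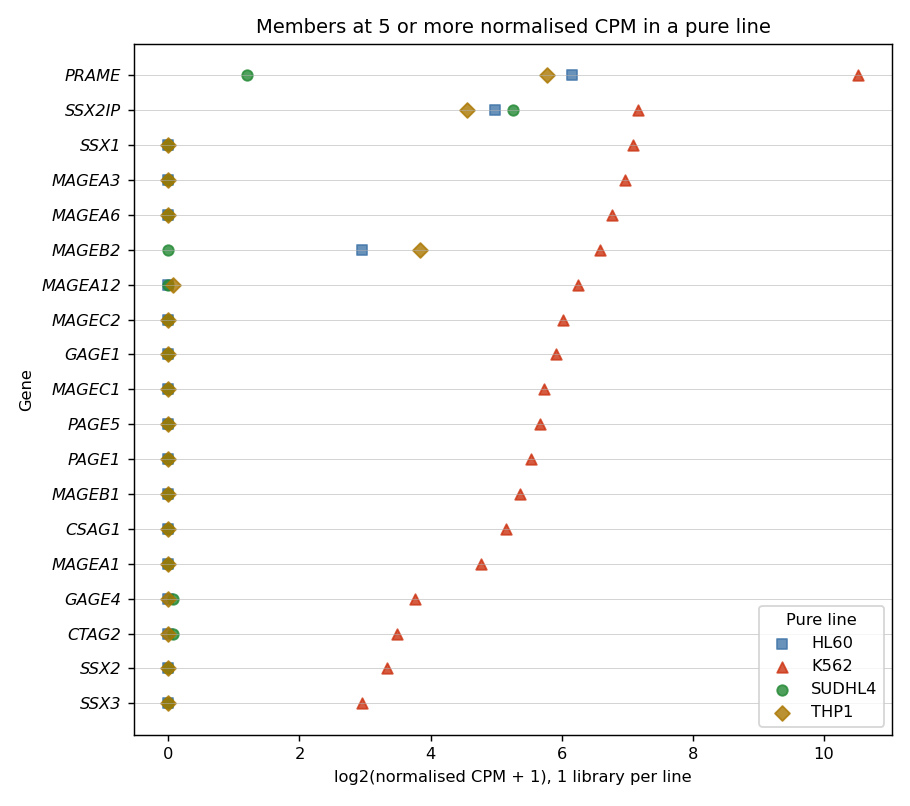
Level of each of the 19 genes that reached 5 normalised CPM in a pure line, as log2(normalised CPM + 1), with 1 point per line and 1 library per line. K562 lies to the right of the other 3 lines for all 19, and only PRAME, SSX2IP and MAGEB2 have points well above 0 in another line.

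The pattern in the other lines was mostly one of no reads at all. Of the 40 genes, 37 had 0 reads in HL60, 34 in SUDHL4 and 30 in THP1, whereas in K562 only MAGEB17 had none. Over all genes, 20.8% had 0 reads in HL60, 22.3% in SUDHL4, 11% in THP1 and 14.8% in K562. No row of the table had fewer than 11 reads over all libraries. Some low members, such as CT45A5 with 9 reads in K562, are therefore listed only through K562 and the mixtures. For these, reads in K562 and a highest level there follow largely from being listed, and they were not left out of the counts here and above. The 13 genes CSAG1, GAGE1, MAGEA1, MAGEA3, MAGEA6, MAGEB1, MAGEC1, MAGEC2, PAGE1, PAGE5, SSX1, SSX2 and SSX3 reached 5 normalised CPM in K562 with 0 reads in all 3 other lines. They are 13 of the 19 at that level, whereas 1.33% of all genes at 5 or more in K562 had 0 reads elsewhere; this criterion was chosen after the values were seen. Between them these 13 genes took 26739 reads in K562. The other members at 5 or more in K562 were PRAME, MAGEB2 and SSX2IP, with many reads elsewhere, and MAGEA12, GAGE4 and CTAG2, each with 1 read in 1 other line.

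PRAME, a substrate receptor of cullin-based ubiquitin ligases that also represses retinoic acid signalling, was the most abundant member and the one most widely read. Its level was 70.4 in HL60, 1471 in K562, 1.30 in SUDHL4 and 54.1 in THP1. The K562 level was thus 20.9 times that of HL60, with an interval of 19.99 to 21.8. HL60 and THP1 stood near each other, and SUDHL4, with 35 reads, was lowest. PRAME took 60.3% of the reads of the 39 family members in K562, 91.3% in HL60, 46.7% in SUDHL4 and 76.8% in THP1. Divided by the length of its merged exons, it reached 390 normalised CPM per kilobase in K562, with SSX1 next at 104. A gene on the opposite strand overlaps PRAME, and whether reads were counted by strand is not stated.

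The MAGE families bind RING-type ubiquitin ligases and change what these ligases act on. MAGEA, with 8 rows, summed to 339 in K562, 0 in HL60 and SUDHL4, and 0.657 in THP1, where 20 of the 21 reads were of MAGEA4. K562 was 516 times THP1, with an interval of 345 to 854. MAGEA3 and MAGEA6, which with TRIM28 form a ligase that degrades AMP-activated kinase, stood at 124 and 108 in K562 with no read in the other lines. Taking 3 reads as the most that could have been missed, MAGEA3 was at least 966-fold higher in K562 and MAGEA6 at least 842-fold. These bounds, and the like bounds below, rest on that set limit and leave out counting error in K562. MAGEA12 was at 75.5 in K562, 0 in HL60 and SUDHL4 and 1 read in THP1; MAGEA1, the founding member, was at 26.3 in K562 with 0 reads in the other 3 lines. The other 4 rows were low: MAGEA8 was highest of them at 3.23 in K562 with 0 reads elsewhere, MAGEA2B and MAGEA9 had 0.833 and 0.720 in K562, and MAGEA4 had 0.127 in K562 and 0.626 in THP1. MAGEA4 overlaps an antisense gene. Of the 50-base windows in their transcripts, 11.9% for MAGEA2B and 6.01% for MAGEA9 occur in no other annotated gene, against 99.4% for MAGEA8. How reads that fit several copies were counted is not stated, and its part in these low levels was not tested. Other low rows with few unique windows, such as CT45A5 at 8.36%, carry the same limit.

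MAGEB2, an RNA-binding stress granule regulator, was the only member besides PRAME and SSX2IP to reach 5 normalised CPM outside K562. It stood at 6.72 in HL60, 95.2 in K562, 0 in SUDHL4 and 13.4 in THP1. The K562 level was 7.12 times that of THP1, with an interval of 6.45 to 7.90. Here THP1 was above HL60, the reverse of their order for PRAME. MAGEB1, its neighbour on the X chromosome, was at 40.2 in K562 with 0 reads in the other lines. The other 3 MAGEB rows were at most 1.34 in a pure line (MAGEB16 in K562), and MAGEB17, with 2 reads in THP1 and 0 in K562, was one of 3 members highest in THP1 along with MAGEA4 and XAGE1B. The MAGEB sum was 137 in K562, 13.5 in THP1 and 6.72 in HL60.

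MAGEC1 and MAGEC2, the second of which also pairs with TRIM28, gave 52.1 and 64.3 in K562 and 0 reads in HL60, SUDHL4 and THP1. Their sum, 116, was at least 905-fold above the other lines. CSAG1, named from chondrosarcoma and lying beside MAGEA12, was at 34.6 in K562 with 0 reads elsewhere. CSAG4, which overlaps MAGEA12 on the same strand, was at 0.579.

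Promoter stretches of the leading members are shown for their CG pairs and for how far the copies resemble each other. RefSeq windows on GRCh38.p14, from 250 bases before to 50 after a start, were matched by symbol for 30 of the 40 members, with 44 windows in all; MAGEA1, GAGE4, GAGE2C, GAGE2E, CTAG2, SSX3, SSX8P, CT45A5, CSAG4 and MAGEB17 had none. The 200 bases before a start are printed 5′ to 3′ on the gene's strand, with CG pairs, the sites of methylation, in capitals. Methylation itself was not measured. MAGEA3 (chrX:152698594-152698793, plus strand) and MAGEA6 (chrX:152769690-152769889, minus strand) have identical stretches, with 0 mismatches, and are printed once. MAGEA12 (chrX:152733557-152733756, plus strand) and CSAG1 (chrX:152733722-152733921, minus strand) start 36 bases apart and run away from each other, so their windows share 135 bases. MAGEB2 (chrX:30215363-30215562) and MAGEC1 (chrX:141903694-141903893) are on the plus strand, as is SSX1 (chrX:48255192-48255391), and PRAME (chr22:22559266-22559465) is on the minus strand.
MAGEA3 and MAGEA6: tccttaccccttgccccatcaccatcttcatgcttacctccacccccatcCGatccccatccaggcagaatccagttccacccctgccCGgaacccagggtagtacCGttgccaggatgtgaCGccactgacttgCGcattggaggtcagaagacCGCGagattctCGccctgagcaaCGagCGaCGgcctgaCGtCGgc
MAGEA12: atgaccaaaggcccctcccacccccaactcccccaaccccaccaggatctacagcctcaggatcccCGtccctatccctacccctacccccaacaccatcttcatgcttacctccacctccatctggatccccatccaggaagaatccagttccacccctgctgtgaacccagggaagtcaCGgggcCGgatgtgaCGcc
CSAG1: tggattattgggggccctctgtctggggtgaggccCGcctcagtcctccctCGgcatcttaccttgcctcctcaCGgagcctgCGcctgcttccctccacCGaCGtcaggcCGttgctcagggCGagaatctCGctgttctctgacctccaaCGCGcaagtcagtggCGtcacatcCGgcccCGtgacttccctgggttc
MAGEB2: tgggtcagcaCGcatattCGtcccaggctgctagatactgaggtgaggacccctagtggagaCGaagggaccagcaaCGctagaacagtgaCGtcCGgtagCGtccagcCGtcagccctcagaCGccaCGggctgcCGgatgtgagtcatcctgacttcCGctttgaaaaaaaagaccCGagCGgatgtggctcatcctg
MAGEC1: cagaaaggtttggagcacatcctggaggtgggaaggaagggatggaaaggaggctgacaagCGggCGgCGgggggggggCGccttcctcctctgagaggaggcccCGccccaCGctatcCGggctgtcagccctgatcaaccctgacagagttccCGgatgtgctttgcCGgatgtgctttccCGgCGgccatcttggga
PRAME: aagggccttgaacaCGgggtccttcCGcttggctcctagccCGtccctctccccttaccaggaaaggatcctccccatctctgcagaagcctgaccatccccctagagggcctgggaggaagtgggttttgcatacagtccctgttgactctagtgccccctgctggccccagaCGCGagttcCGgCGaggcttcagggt
SSX1: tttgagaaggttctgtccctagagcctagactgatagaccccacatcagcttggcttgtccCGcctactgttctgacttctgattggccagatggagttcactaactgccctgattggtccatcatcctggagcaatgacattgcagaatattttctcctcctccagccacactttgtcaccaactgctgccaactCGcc

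The stretches hold 13 CG pairs for MAGEA3 and MAGEA6, 14 for MAGEB2 and CSAG1, 11 for MAGEC1, 7 for PRAME, 4 for MAGEA12 and 2 for SSX1. MAGEA12 and PRAME have further RefSeq starts, and a single start of each was printed. The full window of the printed MAGEA12 start has 9 CG pairs and that of its other start 15. For PRAME the window of the printed start has 13, and those of the others 12 and 4. Over the full windows the 39 family members had a median of 13 CG pairs (43 windows), and all 35116 RefSeq windows had a median of 14. The 20 windows of members at 5 or more in K562 had a median of 13, and the 23 windows of the lower members a median of 12. Of ETS-type motifs only the form CCGGAA was searched as such, on both strands. It was in 5 of the 43 windows (11.6%) and in 17.2% of all windows, which gives no share for ETS sites of other forms. One match lies in the stretch shared by MAGEA3 and MAGEA6 and one, on the opposite strand, in that of PRAME.

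A second string, CGGATGTG, was picked after the stretches had been read and is therefore only described. On either strand it was in 14 of 20 windows of MAGE genes (70.0%), in 3 of 23 windows of the other families (CSAG1 and SSX2) and in 0.666% of all windows. The CSAG1 match is the MAGEA12 site read on the other strand, already counted among the MAGE windows. The SSX2 windows overlap each other, as do those of MAGEA12, so these window counts are not counts of separate sites. It was found in 9 of the 13 MAGE genes with a window: MAGEA12, MAGEA2B, MAGEA4, MAGEA8, MAGEA9, MAGEB1, MAGEB2, MAGEC1 and MAGEC2. MAGEB2 and MAGEC1 carry 2 matches each in the stretch above, whereas MAGEA3 and MAGEA6, the most abundant MAGE members in K562, carry none. Genes with the string also span the range of K562 levels, from MAGEA4 at 0.127 to MAGEB2 at 95.2.

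The SSX genes encode nuclear repressors, known from the SS18-SSX fusions of synovial sarcoma. SSX1 stood at 135 in K562 and had 0 reads in HL60, SUDHL4 and THP1, a level at least 1052-fold higher. SSX2 was at 9.13 and SSX3 at 6.76 in K562, both with 0 reads elsewhere, and the pseudogene SSX8P was at 0.918. SSX1 therefore gave 89.0% of the family's reads in K562, and the family sum was 152.

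The GAGE, PAGE and XAGE genes encode small, acidic and largely disordered proteins. GAGE1 was at 59.0 in K562 with 0 reads elsewhere, and the GAGE4 row at 12.6 with 1 read in SUDHL4. The other 4 GAGE rows were between 0.240 and 0.918 in K562, and the family summed to 73.2 there and to 0.0551, a single read, in SUDHL4. PAGE5 and PAGE1 gave 49.7 and 45.5 in K562 and no reads in the other lines. Per kilobase of exon, PAGE1 at 68.5 and PAGE5 at 66.9 were close to MAGEA3 at 69.4. PAGE2B, PAGE2 and PAGE4 were at most 1.03. XAGE1B went the other way: it had 60 reads in THP1, a level of 1.85, and 41 in K562, a level of 1.17, and the ratio of K562 to THP1 was 0.634, with an interval of 0.414 to 0.955.

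The remaining families were low or at the edge of the rule. CTAG2, the relative of NY-ESO-1, was at 10.2 in K562 with 1 read in SUDHL4. VCX, VCX3A and VCX3B, which encode small basic proteins of the male germ line, summed to 8.12 in K562, 1.41 in SUDHL4 and 0.351 in THP1; the log2 margin of 1.92 fell just short of 2. VCX itself, at 3.88 in K562 and 1.30 in SUDHL4, was the highest of the 21 members that stayed under 5 in every pure line. CT45A5 had 9 reads in K562 and 0 in the other pure lines. By family sums, 9 of the 12 families were enriched in K562 and none in another line, and the exceptions were VCX, XAGE and CT45. Family sums have no share over all genes to stand beside them. They rest on the same reads as the member counts above, PRAME and CTAG being single rows, and so add no separate result.

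**Figure D2:**
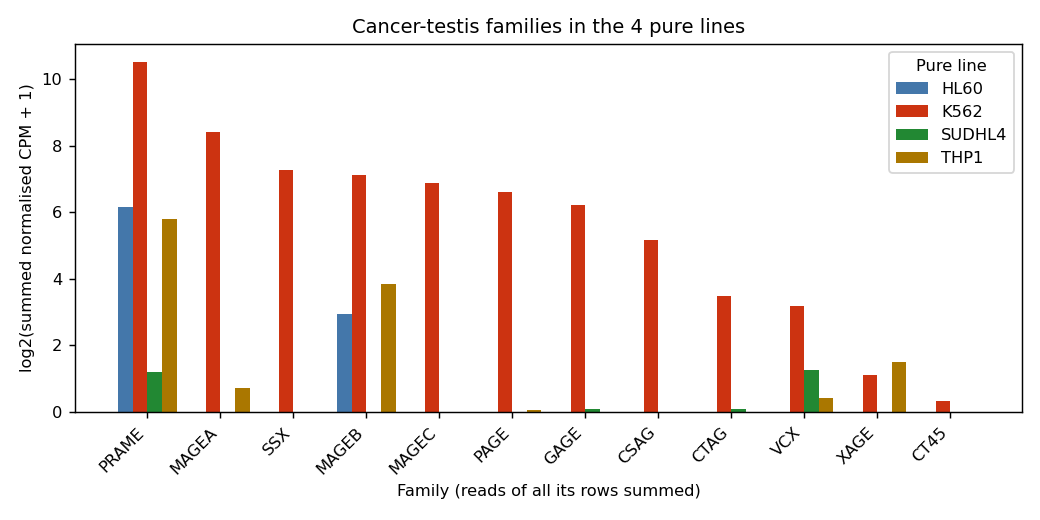
Summed level of each family in the 4 pure lines, as log2(summed normalised CPM + 1), with 1 library per line and SSX2IP left out. The K562 bar is the highest for every family but XAGE, from PRAME at 1471 down to CT45 at 0.268 normalised CPM, and HL60 has bars only for PRAME and MAGEB.

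SSX2IP was expressed in every line, at 30.7 in HL60, 142.6 in K562, 37.4 in SUDHL4 and 22.6 in THP1. K562 was again highest, 3.81 times SUDHL4 with an interval of 3.57 to 4.08, and the log2 margin of 1.90 was just under the rule. In contrast to the 39 family members, none of the 4 lines was near 0.

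The mixtures measured the same genes again in RNA of several lines. Non-negative least squares on 100 signature genes per line gave the weight of each line in each mixture, with all cancer-testis genes and the related lists left out. The K562 weight, as a percentage of the pure library, was 22.3 in mixture 1, 19.5 in mixture 2, 36.0 in mixture 3, 0.0065 in mixture 4, 53.1 in mixture 5 and 51.7 in mixture 6. A gene was called off its prediction when observed and predicted log2(level + 1) differed by at least 1 and either level was at least 5.

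PRAME followed the K562 weight closely, at 333.0, 326, 538, 25.2, 772 and 758 in mixtures 1 to 6, between 0.921 and 1.05 times its prediction. In mixture 4, where almost no K562 was estimated, the predicted 24.1 comes from HL60 and THP1, and 25.2 was observed. MAGEB2 likewise kept 5.30 in mixture 4. The 13 genes with no read in the other lines had 5414, 3631, 7261, 2, 9354 and 12809 reads in mixtures 1 to 6: the 2 reads in mixture 4 were both of SSX1.

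For the other members at 50 or more in K562 the levels in mixtures 1, 2, 3, 5 and 6 were 30.8, 26.9, 43.1, 65.8 and 65.5 for SSX1. MAGEA3 had 24.0, 22.8, 36.9, 58.7 and 64.7, and MAGEA6 had 21.9, 18.7, 33.3, 51.3 and 56.9. MAGEB2 had 19.95, 24.5, 37.6, 45.8 and 52.5, and MAGEA12 had 13.1, 12.5, 24.98, 36.3 and 38.8. In each of these genes the 2 mixtures with a K562 weight over 50% were the highest and mixtures 1 and 2 the lowest. MAGEC2 had 12.4, 10.7, 20.7, 28.4 and 31.5, GAGE1 had 10.4, 12.7, 21.2, 26.5 and 29.7, and MAGEC1 had 9.67, 8.73, 20.2, 27.1 and 28.5. The 9 family members at 50 or more, PRAME included, lay between 0.748 and 1.10 times their predictions over these 5 mixtures.

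Of the members that could be judged, 0 of 15 were off prediction in mixtures 1, 2 and 3 each, 0 of 3 in mixture 4, 1 of 17 in mixture 5 and 0 of 18 in mixture 6. The shares of all genes off prediction were 0.0971%, 1.23%, 0.148%, 0.22%, 0.685% and 0.24%. The members' median ratio of observed to predicted level was 0.863, 0.959, 0.894, 1.05, 0.900 and 1.01, beside 0.992, 1.01, 1.01, 1.04, 0.979 and 0.999 over all genes. The members' median was below that of all genes in mixtures 1, 2, 3 and 5 and above it in mixtures 4 and 6. Of the 9 members at 50 or more, 8, 7, 8, 9 and 6 were below prediction in mixtures 1, 2, 3, 5 and 6. The share of all genes below prediction was not computed. These 9 rest on the same fitted K562 weight, so they are not separate observations. Over the fits tried, that weight ran from 19.55% to 23.04% in mixture 1 and from 48.0% to 57.2% in mixture 5. With 1 library each, the error of the members' median ratio is not known.

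**Figure D3:**
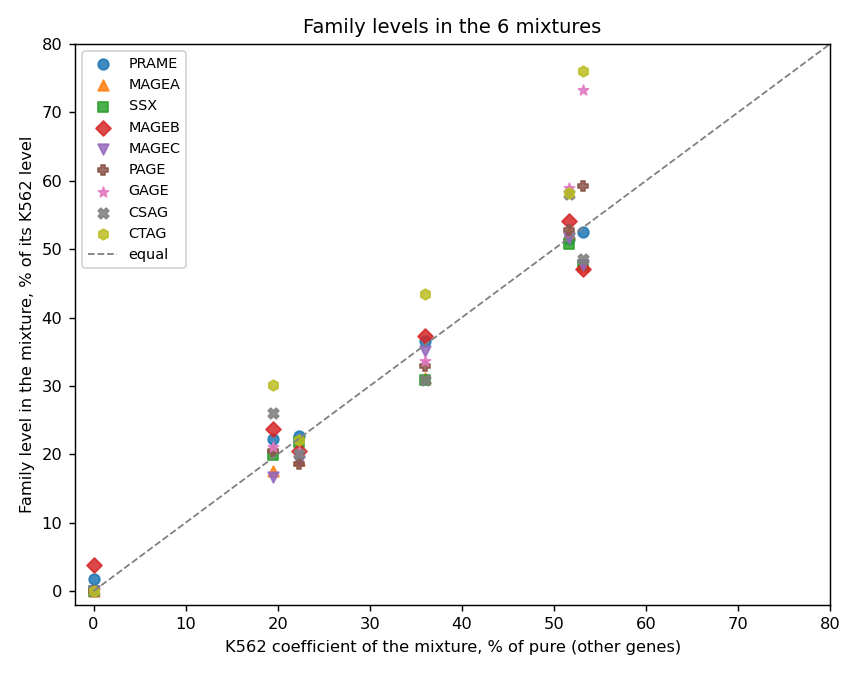
Summed level of 9 families in each of the 6 mixtures, as a percentage of the family's level in pure K562, against the K562 weight of the mixture estimated from other genes (1 library per point; the dashed line marks equal values). Most families lie near the line, and GAGE at 73.2% and CTAG at 76.1% stand above it in mixture 5.

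The member off its prediction was GAGE4. It stood at 12.6 in pure K562 and at 4.24, 2.44, 3.27, 0, 26.6 and 13.1 in mixtures 1 to 6, so that a mixture with a K562 weight of 53.1% held more than pure K562. The predicted level in mixture 5 was 6.69 and the ratio 3.97; in mixture 6 the ratio was 2.02, short of the rule. GAGE1 in the same mixtures was at 26.5 and 29.7, near its prediction. The reads of GAGE4 over those of GAGE1 were 0.213 in K562 (0.192 to 0.236), 0.406 in mixture 1, 0.190 in mixture 2, 0.154 in mixture 3, 1.00 in mixture 5 (0.899 to 1.12) and 0.442 in mixture 6. The intervals of K562 and mixture 5 do not overlap.

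GAGE4 belongs to the near-identical copies. The annotation, GENCODE 29, gives its gene ID the name GAGE12G, and the IDs of the GAGE2C and GAGE2E rows the names GAGE12F and GAGE12J. The encoded proteins of GAGE2C and GAGE4 are 100% identical, and all 4 of GAGE2C, GAGE2E, GAGE4 and GAGE12C are at least 97.4% identical, whereas GAGE1 and GAGE4 share 80.7%. None of the 50-base windows of GAGE4 or GAGE12C is unique among annotated transcripts, against 87.1% of those of GAGE1. The sum of the 4 copies was 13.99 in K562 and 27.1 in mixture 5, 3.64 times the prediction. GAGE4 gave 445 of the 495 summed reads in K562 and 678 of 691 in mixture 5, so the sum could hardly differ from GAGE4 alone. Copies without a row could not be added. The GAGE sum as a whole was 1.38 times its prediction in mixture 5.

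SSX2 also varied, at a lower level and not always in the direction of GAGE4. In mixture 5 it was at 0.585 times its prediction, where GAGE4 was at 3.97 times, and in mixture 6 both were above prediction. Only in mixture 6 could SSX2 be judged by the rule, and it was not off there. None of its 50-base windows is unique, since SSX2B, not analysed here, holds all of them. It was at 9.13 in K562 and at 0.668, 2.04, 1.35, 0, 2.84 and 8.23 in mixtures 1 to 6, between 0.327 and 1.74 times its prediction in the 5 mixtures with K562. Its reads over those of SSX1 ran from 0.0213 (0.0136 to 0.0318) in mixture 1 to 0.126 (0.110 to 0.143) in mixture 6, and the ratio in K562 was 0.0675 (0.0601 to 0.0756). In mixtures 5 and 6, alike in K562 weight, SSX1 stood at 65.8 and 65.5 while SSX2 stood at 2.84 and 8.23.

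MAGEA3 and MAGEA6 showed no such variation. Their proteins are 95.9% identical, and 43.5% and 46.1% of their 50-base windows are unique. Reads of MAGEA3 over MAGEA6 were 1.15 in K562 and between 1.10 and 1.22 in the 5 mixtures, with all intervals overlapping. Summed, the pair gave 232 in K562 and 45.9, 41.5, 70.1, 0, 110.0 and 121.6 in mixtures 1 to 6, between 0.838 and 1.01 times the prediction outside mixture 4. The head-to-head pair MAGEA12 and CSAG1 had a ratio of 2.18 in K562 (2.04 to 2.34) and 1.40 in mixture 2 (1.17 to 1.66), and between 1.88 and 2.35 in mixtures 1, 3, 5 and 6. How the counting treated reads that fit several copies is not stated, and its part in these ratios was not tested.

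**Figure D4:**
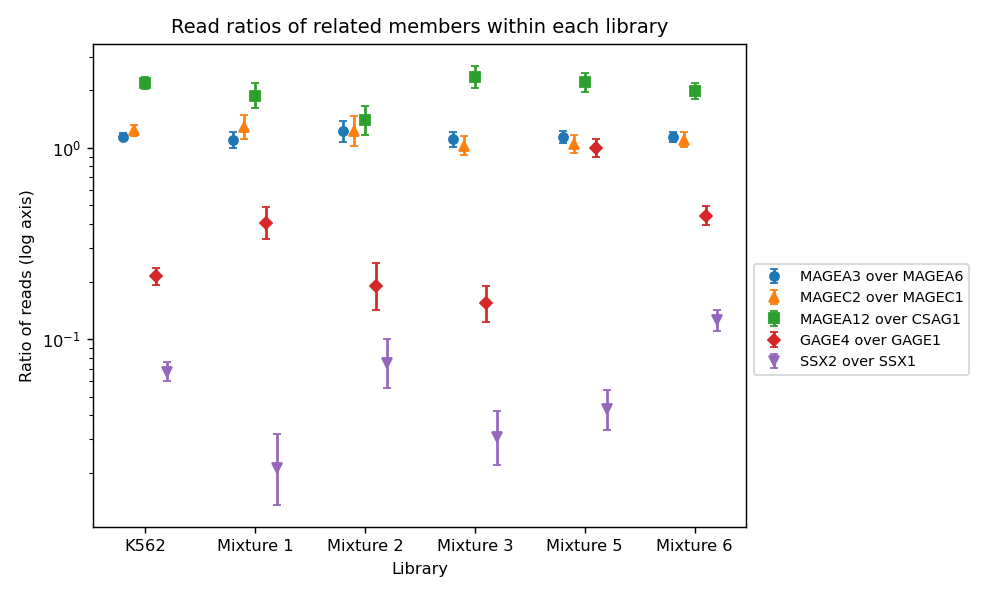
Ratio of reads of 2 related genes within each library that holds K562 RNA (log axis, 1 library per point, bars are exact 95% intervals for counting error). MAGEA3 over MAGEA6 stays between 1.10 and 1.22, whereas GAGE4 over GAGE1 runs from 0.154 to 1.00 and SSX2 over SSX1 from 0.0213 to 0.126.

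Of 678 X-linked genes that are no members, 22 were enriched in K562 (3.24%). Among 91 measured neighbours within 3 genes of a member, 37 reached 5 normalised CPM in K562, where 45.5% of all genes did, and 4 were enriched there. Of these, SAGE1 at 23.3 and PASD1 at 9.25, are themselves known cancer-testis genes, ALAS2 at 103 makes the first enzyme of haem synthesis in red cell precursors, and GABRE at 13.1 encodes a GABA receptor subunit.

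Among 43 measured cancer-testis genes of other families, 5 were enriched in K562, 1 in THP1 and none in HL60 or SUDHL4, against 2.62% of all genes in K562, 2.86% in THP1, 0.554% in HL60 and 2.03% in SUDHL4. Their median log2 difference in K562 was 0.48. CTCFL, the germ-line paralogue of the insulator protein CTCF, was at 238 in K562, 0.0503 in HL60 and 0 in SUDHL4 and THP1. LIN28B, which blocks maturation of let-7 microRNAs, was at 178 in K562, 15.4 in HL60, 0 in SUDHL4 and 0.107 in THP1. CT55 was at 21.4 in K562 with 0 reads in the other lines. ANKRD45, at 12.1 in THP1 and 0.635 in K562, was the one enriched in THP1. The list also holds genes of cell division that every line expressed, such as KIF2C at 117 in HL60, 308 in K562, 154 in SUDHL4 and 140 in THP1.

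Of 8 measured MAGE genes outside the cancer-testis subfamilies, which many tissues express, none was enriched in any line; their median log2 difference in K562 was 0.08. MAGED1 was at 75.4 in HL60, 35.6 in K562, 129 in SUDHL4 and 19.97 in THP1, and MAGED2 was at 33.8, 36.3, 39.1 and 75.9. The list of protein partners had 18 measured genes. It also holds the SSX fusion partner SS18 and the export factors NXF1, NXF3, NXT1 and NXT2, although NXF2 was not analysed here. Of the 18, 17 reached 5 normalised CPM in HL60 and 16 in each of K562, SUDHL4 and THP1. Over all genes, 43.8% did so in HL60, 45.5% in K562, 43.4% in SUDHL4 and 47.8% in THP1. TRIM28, the ligase partner of MAGEA3, MAGEA6 and MAGEC2, was at 926 in HL60, 669 in K562, 512 in SUDHL4 and 454 in THP1. EZH2, reported as a partner of PRAME, was at 147, 219, 137 and 83.9 in the same order. In this list the export factor NXT2 was enriched in HL60 (299 against 33.6 in K562) and TRIM69 in SUDHL4 (28.2 against 4.05), and none in K562. The shares of all genes enriched were 0.554% in HL60, 2.03% in SUDHL4 and 2.62% in K562.

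In the list of genes of DNA methylation and cancer-testis gene silencing, 3 of 22 were enriched in K562, against 2.62% of all genes. The list median was -0.24 on the log2 scale. Besides genes that write, read or remove DNA methylation, the list holds CTCF, CTCFL and histone-modifying enzymes such as HDAC1. CTCFL, counted above, was 1 of the 3 enriched genes. DNMT3B, a methyltransferase that sets new marks, was at 4.48 in HL60, 118 in K562, 5.78 in SUDHL4 and 7.17 in THP1, and TET1, which oxidises methylcytosine, was at 11.6, 91.0, 3.76 and 3.28. DNMT1, which copies methylation after replication, was at 230.2, 192, 384 and 182, and HDAC1 at 201, 212, 430.5 and 183, so that K562 was below HL60 and above THP1 for DNMT1, and above both for HDAC1. MBD2, a reader of methylated DNA, was lowest in K562: 162 in HL60, 51.8 in K562, 608 in SUDHL4 and 72.4 in THP1.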

How the data were processed

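Each library was placed in its group by its title. HISAT2, featureCounts, hg19 and Cell Ranger ARC 2.0.0 appear, without roles, in the submitters' processing notes; annotation, settings and rescaling are not given in the sources used here. Per gene, the authors deposited signal values on a rescaled counts-per-million scale. Every value above 0 was a whole number of reads plus 0.5, times a constant step of its column (100% of values, tolerance 0.01), which gave the reads used for depth and intervals. The design had assumed plain CPM; its rules were applied unchanged. The row with the fewest reads had 11 over all libraries; no further filter was used, so all 40 members entered.

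The members, the gene lists and the rules were chosen with earlier results of these data known. Named genes are the members at 5 or more normalised CPM in a pure line, those at 50 or more or off prediction in mixtures, the highest others of each family, the called genes of related lists and leading partners or controls; other genes named were chosen after their values were seen. Differences are on the log2(value + 1) scale. A family level is the family's summed reads plus 0.5, all multiplied by the step, or 0 where it had no reads. Exon lengths, window uniqueness and protein identity came from GENCODE 29 (GRCh38), a newer build than hg19, and promoters from RefSeq. The steps were tested on simulated data. Python 3.11.15, numpy 2.4.6, scipy 1.17.1, pandas 2.3.3 and biopython 1.88 were used. Alternatives changed the level minimum, margin, pseudocount, scaling, signature genes and fitting.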

Additional observations from a re-analysis of the deposited data

How the results depend on the processing

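Of 120 values recomputed under alternative settings, 114 stayed within 1.5 times the reported count. Most of the 120 had a reported count of 0, and for these it only means that the count stayed at 0. The number of members enriched in K562 ran from 14 to 19, and was 18 under scaling by total reads and under housekeeping scaling. The share of all genes enriched in K562 also moved. It was 1.52% at a minimum of 20, with 14 members, and 2.88% at a minimum of 1, with 19. At a margin of 3 it was 1.6%, with 16 members, and at a margin of 1 it was 5.25%, with 19. Under scaling by total reads it was 2.72%, and under housekeeping scaling 2.64%. Members lost were CTAG2, GAGE4, SSX2 and SSX3 at a minimum of 20, and MAGEB2 and SSX3 at a margin of 3; MAGEA8 was gained at a minimum of 1 and SSX2IP at a margin of 1. Housekeeping scaling moved all genes by -0.42 (HL60), 0.03 (K562), 0.28 (SUDHL4) and 0.22 (THP1) on the log2 scale. It gave 0 partners enriched in HL60, 1 methylation gene in SUDHL4 and 2 other cancer-testis genes in THP1. The shares of all genes enriched were then 0.296% in HL60, 2.47% in SUDHL4 and 3.48% in THP1. Scaling by total reads also gave 1 methylation gene in SUDHL4, against 2.08% of all genes. With weights fitted on all genes at 5 or more, 1 member (PRAME) was off prediction in mixture 4, where the K562 weight came to 2.66%. With a threshold of 0.5, 2 members (GAGE4 and SSX2) were off in mixture 6. GAGE4 was off in mixture 5 in every setting run. With at most 1 or at most 3 reads allowed in the other lines, settings chosen after seeing the data, 16 members replaced the 13 with none.

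The cause of these changes was not tested. No paired analysis was possible because each group holds 1 library, so that leaving 1 out removes its group. Depth limits genes at 0 reads to a level of at most 0.139 normalised CPM.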
